A study of Bos taurus with 14 samples.

Results

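Interleukins are secreted signalling proteins through which leukocytes and tissue cells direct each other, and each acts through its own receptor chains on the receiving cell. The genes described here are the 27 bovine interleukin and interleukin receptor genes that a custom Agilent array carried, chosen by name from the 5525 gene symbols on it: every symbol that begins with IL and a digit, other than IL10. Each of the 27 had 1 probe among the 15208 non-control probes. Cytokine receptors of the gamma-chain, IL6 and IL12 families signal through JAK kinases and STAT factors, whereas receptors of the IL1 and IL18 family signal through MyD88, IRAK kinases and NF-kB. In early pregnancy of cattle, interferon tau (IFNT), a type I interferon secreted by the conceptus, reaches both the endometrium and circulating leukocytes.

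The arrays measured RNA of 4 samples of bovine granulocytes with IFNT, 4 of granulocytes with phosphate-buffered saline (PBS), 3 of bovine endometrial stromal cells (BES) with IFNT and 3 of BES with PBS, each incubated for 2 h. According to the labels IFNT was given at 1 mg/mL, an unusually high dose whose unit may be mistaken. They tag the granulocytes as both in vivo and in vitro and the BES as in vitro, and describe RNA extraction for granulocytes. No source used here names animals, breed, age or passage, or states the origin of the replicates, so p-values cover no more than the spread among these samples, which may be technical. A level below is the log2 processed signal of a probe minus the 75th percentile of its array. Levels are set between samples for 1 probe, or for 1 sum of marker probes, never between probes. All granulocyte arrays lay on 1 slide and all BES arrays on another. On the granulocyte slide the IFNT samples filled array row 2 and the PBS samples row 1, so treatment and row cannot be told apart there.

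Between 66.4% and 70.9% of probes were well above background on the granulocyte arrays, against 71.6% to 76.1% on the BES arrays. Of granulocyte markers other than interleukin genes, 14 of 14 were well above background on every granulocyte array. With IFNT 5 of them were called higher and 2 lower, among them CATHL6 (log2 change 1.54), FCGR3A (1.34), CATHL2 (1.33), LTF (1.00), MMP9 (-0.56) and PTAFR (-0.54). Of stromal markers, 9 of 9 were well above background on every BES array. In granulocytes 4 of the 9 were so on every array (VIM, COL1A1, THY1 and S100A4), DCN was so on some, and COL1A2, COL3A1, LUM and PDGFRA on none. COL1A1 was called higher with IFNT in granulocytes (log2 change 1.42, adjusted p = 5.0e-06, limma). The BES arrays also carried keratin RNA: 5 of 6 epithelial markers, KRT8 and KRT19 among them, were well above background on every BES array, and EPCAM was so on none. In granulocytes 6 of 6 epithelial markers were so on every IFNT array and 4 of 6, EPCAM and KRT19 among them, on every PBS array. With IFNT 2 of the 6 were called higher in granulocytes, MUC1 (log2 change 2.84) and EPCAM (0.40). MUC1 was well above background on only 1 of 4 granulocyte PBS arrays. In the granulocyte samples, 10 of 10 T and NK cell markers were well above background on every IFNT array and 9 of 10 on every PBS array. On every BES array 4 of these 10 were so, as were 2 of 3 B cell and 3 of 5 monocyte markers. Of the 14 granulocyte markers, 7 were so on every BES PBS array and 6 on every BES IFNT array. PRF1 was at -1.80 in BES with PBS, against -3.06 in granulocytes with PBS. This flag alone therefore does not show that a cell type was present. In the granulocyte samples the summed level of the T and NK cell markers, the log2 of their summed signals, ran from 2.33 to 2.39 with IFNT and from 2.33 to 2.37 with PBS. The summed level of 5 monocyte markers was 4.73 to 4.78 with IFNT and 4.82 to 4.94 with PBS, that of 2 eosinophil markers 3.41 to 3.60 with IFNT and 3.78 to 3.86 with PBS, and that of 3 B cell markers 1.33 to 1.39 with IFNT and 1.22 to 1.30 with PBS. Such a sum follows mainly its brightest probe. In granulocytes CD68 averaged 4.31 with IFNT and 4.67 with PBS, and the eosinophil marker ALOX15 3.48 with IFNT and 3.69 with PBS. The monocyte markers did not move together: CD68 (log2 change -0.36) was called lower with IFNT, and CD14 (1.03), C1QB (0.47) and C1QC (0.41) higher. Both eosinophil markers, CCR3 (-1.34) and ALOX15 (-0.21), were called lower, 2 of 10 T and NK cell markers, NKG7 (0.93) and PRF1 (0.27), higher, and 1 of 3 B cell markers, JCHAIN (0.35), higher. All these counts are to be read against all probes tested in granulocytes, of which 17.2% were called higher and 27.4% lower. Whether the granulocyte samples held other cells was not tested. In mixed RNA, fewer cells of a type and less RNA per cell could not be told apart. The part of any such cells in the interleukin results was not tested.

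The array's 60-base probes decide which transcript each value reads, so 30 bases are shown from the probes of 6 genes on which the results turn. They are the IL12A subunit of IL12, the chemokine IL8, the receptor labelled IL8RB, the antagonist IL1RN, the common gamma chain IL2RG and the receptor chain IL11RA. Capitals mark AATAAA, the usual polyadenylation signal, which lies near the end of many transcripts.
IL12A: ggtgaccatcgacagaatgatgagctatct
IL8: gcaatgatgtgttgtatcatgtgaatcttg
IL8RB: ttctgtggtataAATAAAtgctaccaccat
IL1RN: ttgagtggaaagtgtcctgttctctgtgac
IL2RG: agaaatcgccttgggccgatccatgtttct
IL11RA: tgtgagggtgtgAATAAAgagaatgaggag
AATAAA stood in 6 of the 27 interleukin probes (22.2%), those of IL7, IL8RB, IL11RA, IL15, IL16 and IL17RC, against 11.3% of all 15208 probes, read on the probe strand alone; the hexamer was chosen after the sequences were seen. RefSeq names matched all 27. RefSeq calls IL8 CXCL8 and IL17 IL17A, and it assigns the accession of the probe labelled IL8RB to CXCR1, the paralogue of CXCR2, so which of these receptors the probe reads is uncertain by name. IL16 and IL17RC were named from descriptions that read "similar to". In the order of coding genes in RefSeq's ARS-UCD2.0 table, the members form 3 clusters. IL1A, IL1B and IL1RN lie together with 1 gene between IL1A and IL1B and 6 between IL1B and IL1RN. IL4 and IL13 are adjacent, with IL5 1 gene from IL13 and IL3 7 from IL5, and IL2 and IL21 are adjacent.

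Not all interleukins could be measured in these cells. IL17, IL2, IL21, IL3 and IL5, cytokines made mainly by activated lymphocytes, were well above background on none of the 14 arrays. IL13, IL4 and IL7 were so on 1 array each, at levels of -4.92 in granulocytes with PBS (sample 1), -5.92 in BES with PBS (sample 1) and -5.45 in granulocytes with IFNT (sample 3). A probe was tested within a cell type when it was well above background on at least 4 of the 8 granulocyte arrays or 3 of the 6 BES arrays. By that filter 19 members were tested in granulocytes and 12 in BES.

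**Figure D1:**
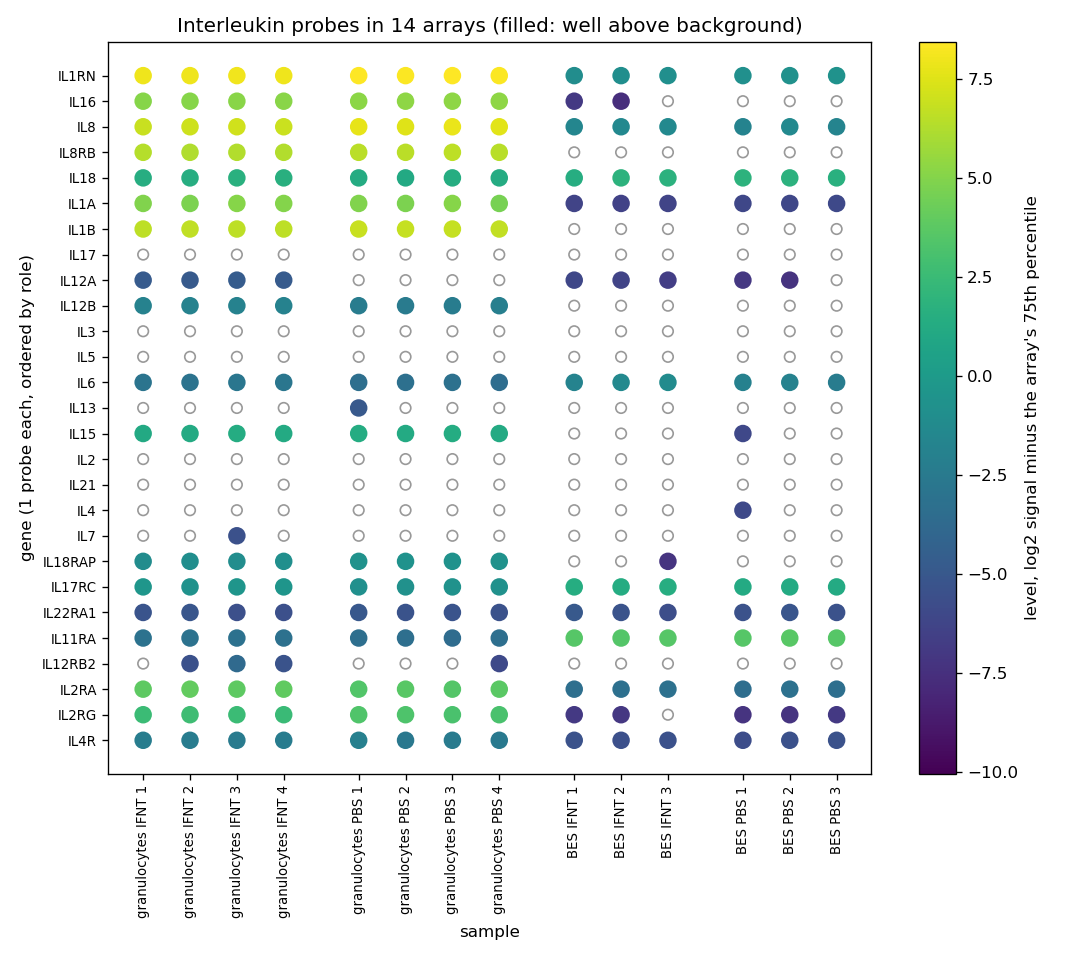
Level of each of the 27 interleukin and receptor probes (rows, ordered by role) in each of the 14 samples (columns); filled circles are spots well above background, coloured by log2 level, and open circles are not. Colours compare samples within a row and not rows with each other. IL17, IL2, IL21, IL3 and IL5 have no filled circle, and IL12A is filled in all 4 granulocyte IFNT samples and in none of the 4 granulocyte PBS samples.

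In granulocytes, interleukin RNA differed between IFNT and PBS samples in both directions. With IFNT the IL12 subunits, IL6, IL18 and the receptor chains IL2RA, IL17RC and IL11RA were higher. The neutrophil chemokine IL8, the common gamma chain IL2RG, the antagonist IL1RN and 4 others were lower. Of 19 members tested, 14 passed an adjusted p of 0.05 in limma's moderated test with Benjamini-Hochberg adjustment over all 10379 probes tested, 7 higher and 7 lower. In the same comparison 44.6% of all probes tested passed, 17.2% higher and 27.4% lower. The median log2 change was 0.04 over the 19 members and -0.05 over all probes tested, and the median absolute change was 0.33 and 0.20. Only IL12A changed by at least 2-fold, where 4.84% of all probes did so. The groups did not overlap for 15 of the 19 members, against 43.6% of all probes tested. The plot of granulocyte samples shows each value behind these calls.

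**Figure D2:**
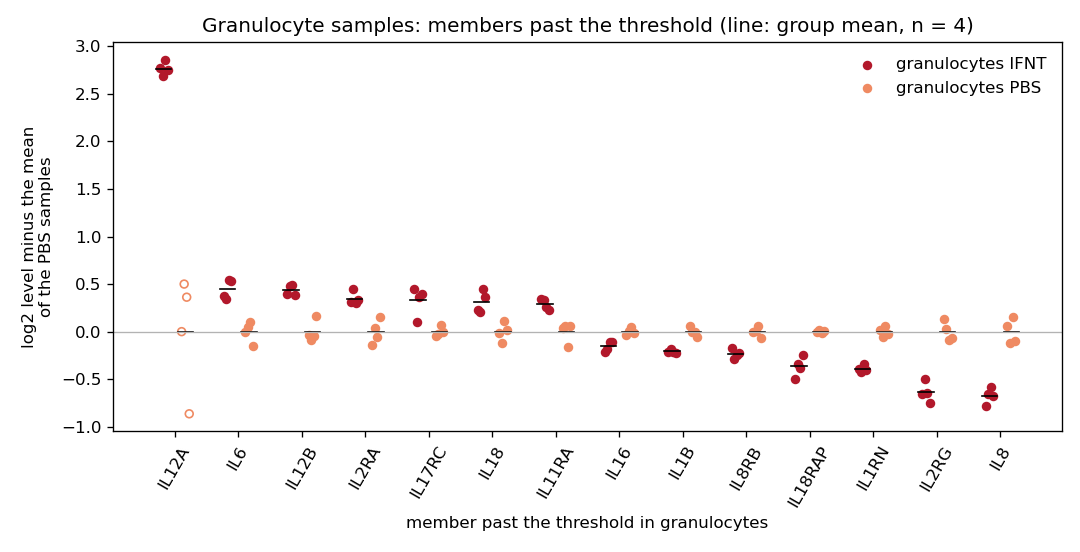
Log2 level in each granulocyte sample minus the mean of the PBS samples (y axis) for the 14 members past the threshold (x axis); IFNT samples stand left of PBS samples, lines are group means (n = 4) and open circles are spots not well above background. All IFNT samples lie above all PBS samples for the 7 members on the left and below them for the 7 on the right.

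The list of secreted ligands of the IL6 and IL12 families, to which IL3 and IL5 were added, held 5 genes on the array. IL12A, IL12B and IL6 were tested in granulocytes and rose, where 17.2% of all probes tested rose. IL12A could be tested only because it was high with IFNT, and IL3 and IL5 were not tested. IL12A encodes the subunit that pairs with the IL12B product to form IL12, a cytokine that drives interferon gamma production. IL12A had levels of -4.79, -4.88, -4.71 and -4.82 with IFNT, against -7.57, -7.07, -7.20 and -8.43 with PBS. The IFNT samples lay close together and well above background, and no PBS sample was well above background. On the scale of the processed signal the change was therefore at least 2.06-fold (1.05 on the log2 scale). The fitted log2 change was 2.77 ± 0.26 (SE, n = 4 each, adjusted p = 5.0e-05, limma). The probe passed the filter only through the IFNT samples, where its processed intensity was 41.5 to 45.1, against 4.32 to 11.0 in the PBS samples. With normexp background correction the fitted log2 change was 0.70, smaller than the bound given here. IL12B, the partner subunit shared with IL23, had levels of -1.92, -1.83, -1.82 and -1.93 with IFNT, against -2.35, -2.40, -2.36 and -2.15 with PBS. Every IFNT sample exceeded every PBS sample, and the log2 change was 0.44 ± 0.06 (SE, adjusted p = 6.7e-04, limma).

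IL6, an acute-phase cytokine that signals through gp130 and STAT3, had levels of -2.96, -2.99, -2.80 and -2.80 with IFNT, against -3.34, -3.29, -3.23 and -3.48 with PBS. The groups did not overlap, and IL6 rose by 0.45 ± 0.07 on the log2 scale (SE, adjusted p = 0.0011, limma), a 1.37-fold change. The receptors of these families differed in how firmly they were measured. IL11RA, the ligand-binding chain of the IL11 receptor, had levels of -3.07, -3.08, -3.16 and -3.19 with IFNT, against -3.38, -3.35, -3.57 and -3.35 with PBS, and rose by 0.29 ± 0.06 (SE, adjusted p = 0.0053, limma). It lost its call under normexp correction (0.16, adjusted p = 0.0503). IL12RB2, the signalling chain of the IL12 receptor, did not pass: its levels with IFNT were -5.72, -5.46, -3.71 and -5.27, against -5.96, -6.17, -6.06 and -5.92 with PBS, a log2 change of 0.99 ± 0.39 (SE, adjusted p = 0.0681, limma). IFNT sample 3 stood well above the other IFNT samples, and without it the log2 change was 0.55 with an adjusted p of 0.0067 in limma. Without IFNT sample 1 it was 1.22 with an adjusted p of 0.0436. Only 3 IFNT samples and 1 PBS sample were well above background for IL12RB2.

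Within the IL1 family the ligands went different ways in granulocytes. IL18, a cytokine that caspase-1 cleaves to its active form, had levels of 1.49, 1.47, 1.71 and 1.62 with IFNT, against 1.25, 1.14, 1.38 and 1.28 with PBS, and rose by 0.31 ± 0.07 on the log2 scale (SE, adjusted p = 0.0078, limma). IL1B, the main secreted IL1 of activated phagocytes, had levels of 6.58 to 6.63 with IFNT, against 6.75 to 6.86 with PBS. The IL1B groups did not overlap, and the fall was small, a log2 change of -0.21 ± 0.04 (SE, adjusted p = 0.0038, limma). IL1A, the membrane-associated alarm form, ran from 4.81 to 5.06 with IFNT and from 4.63 to 5.08 with PBS. Its groups overlapped and it did not pass (0.10 ± 0.10, SE, adjusted p = 0.479, limma; 95% confidence interval -0.13 to 0.32).

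The antagonist and the accessory receptor of the family both fell. IL1RN, a soluble antagonist that occupies the IL1 receptor without signalling, had levels of 7.97, 7.94, 8.02 and 7.95 with IFNT, against 8.38, 8.30, 8.42 and 8.33 with PBS. Each IFNT sample was lower than each PBS sample, with a log2 change of -0.39 ± 0.05 (SE, adjusted p = 1.6e-04, limma). IL18RAP, the accessory chain of the IL18 receptor, found on lymphocytes and NK cells as well as granulocytes, had levels of -1.16, -1.0, -1.04 and -0.91 with IFNT, against -0.67, -0.65, -0.68 and -0.66 with PBS. The PBS samples differed among themselves by far less than the IFNT samples did, and the log2 change was -0.36 ± 0.06 (SE, adjusted p = 9.1e-04, limma).

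In the chemoattractant group IL8, the IL8RB probe and IL16 fell, where 27.4% of all probes tested fell, and the IL16 call was lost in 6 of 16 alternatives. IL8, which recruits and activates neutrophils, had levels of 6.88, 7.0, 7.08 and 6.98 with IFNT, against 7.72, 7.54, 7.82 and 7.57 with PBS. The groups were separated by more than either group's own range, and the log2 change of -0.68 ± 0.07 (SE, adjusted p = 1.2e-04, limma) corresponds to a 1.60-fold lower level. The probe labelled IL8RB, a receptor for IL8, had levels of 6.35, 6.25, 6.28 and 6.31 with IFNT, against 6.53, 6.54, 6.59 and 6.47 with PBS, a log2 change of -0.23 ± 0.05 (SE, adjusted p = 0.0034, limma). IL16, a chemoattractant for CD4+ cells, had levels of 5.05 to 5.16 with IFNT, against 5.23 to 5.32 with PBS. Its change was the smallest of the called members (-0.15 ± 0.05, SE, adjusted p = 0.0251, limma), and the call was lost without IFNT sample 1 or 2 or PBS sample 2 or 3 (log2 change -0.17 to -0.13 and adjusted p up to 0.0693 over the 8 fits that each left out a sample).

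Receptor chains of the gamma-chain family moved in opposite directions. IL2RG, the chain shared by the receptors for IL2, IL4, IL7, IL15 and IL21, had levels of 2.56, 2.71, 2.57 and 2.46 with IFNT, against 3.34, 3.24, 3.12 and 3.15 with PBS. No sample of either group reached the other, and IL2RG changed by -0.64 ± 0.07 (SE, adjusted p = 1.3e-04, limma), a 1.56-fold lower level. IL2RA, the high-affinity alpha chain of the IL2 receptor, had levels of 3.88, 4.01, 3.87 and 3.90 with IFNT, against 3.42, 3.61, 3.51 and 3.72 with PBS, and rose by 0.35 ± 0.07 (SE, adjusted p = 0.0039, limma). IL4R, the alpha chain of the IL4 receptor, did not pass (0.04 ± 0.11, SE, adjusted p = 0.819, limma; 95% confidence interval -0.22 to 0.30). Among the ligands of the family only IL15, which sustains NK cells and memory T cells, was tested, and it did not pass, at 1.09 to 1.29 with IFNT and 1.18 to 1.32 with PBS (log2 change -0.06 ± 0.06, SE, adjusted p = 0.482, limma).

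Of the IL17 and IL22 receptors, IL17RC rose and IL22RA1 did not pass. IL17RC, which pairs with IL17RA to bind IL17, had levels of -0.33, -0.67, -0.41 and -0.38 with IFNT, against -0.83, -0.80, -0.71 and -0.78 with PBS. IFNT sample 2 lay just above the PBS samples and the other three well above them, for a log2 change of 0.33 ± 0.08 (SE, adjusted p = 0.0078, limma). IL22RA1, the IL22-binding chain known from epithelia, had a log2 change of -0.11 ± 0.12 (SE, adjusted p = 0.524, limma).

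The signalling genes downstream of these receptors, listed by function, were read beside them. Of 8 JAK, STAT and inhibitor genes tested in granulocytes, 4 rose and 2 fell, where 17.2% of all probes tested rose and 27.4% fell. The feedback inhibitors SOCS2 and CISH changed by 1.32 ± 0.08 and 1.28 ± 0.09 on the log2 scale (SE), and SOCS3, an inhibitor of gp130 signalling, by 0.71 ± 0.08. STAT3, a STAT factor and not an inhibitor, also rose, by 0.27 ± 0.04 (SE). The 2 genes of this list that fell were inhibitors, PIAS1 (-0.44 ± 0.07, SE) and SOCS4 (-0.30 ± 0.08). Of 14 MyD88, IRAK, NF-kB and inflammasome genes tested, of 15 on the array, 2 rose and 7 fell, to be read against the same shares. CASP1, the protease that matures IL1B and IL18, changed by 1.02 ± 0.05 (SE) and the IkB-like regulator NFKBIZ by 0.38 ± 0.05. The inhibitor NFKBIB changed by -0.73 ± 0.05 (SE) and the adaptor TRAF6 by -0.43 ± 0.04. The median log2 change was 0.11 over the JAK and STAT list and -0.18 over the MyD88 list, against -0.05 over all probes tested.

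In BES, no interleukin gene passed the threshold. Of 12 members tested, limma called 0, and 5 had an unadjusted p under 0.05: IL1A, IL12A, IL17RC, IL1RN and IL6. In that comparison 3.66% of all 11309 probes tested passed the adjusted threshold and 25.4% had an unadjusted p under 0.05. The IFNT and PBS samples did not overlap for 6 of the 12 members, against 33.5% of all probes tested. The median log2 change was 0.01 over the 12 members and -0.02 over all probes tested. IL12A had levels of -6.12, -6.31 and -6.71 with IFNT, against -7.06, -7.29 and -7.02 with PBS (log2 change 0.74 ± 0.16, SE, n = 3 each, adjusted p = 0.0594, limma). All IFNT samples lay above all PBS samples, 2 of which were well above background. IL12A passed under quantile normalization (0.79, adjusted p = 0.0372), with an intensity trend and robust prior (0.74, adjusted p = 0.0400) and without IFNT sample 3 (0.91, adjusted p = 0.0286), and it did not under normexp correction (0.25, adjusted p = 0.0961).

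None of the other members passed in BES. IL6 had levels of -1.80, -1.34 and -1.19 with IFNT, against -1.96, -1.82 and -2.32 with PBS, a log2 change of 0.59 ± 0.19 (SE, adjusted p = 0.133, limma). IL1A had levels of -6.33, -6.40 and -6.29 with IFNT, against -6.09, -6.13 and -5.98 with PBS (-0.28 ± 0.06, SE, adjusted p = 0.0580, limma). IL1RN had levels of -1.04, -0.96 and -0.93 with IFNT, against -0.87, -0.75 and -0.69 with PBS (-0.21 ± 0.06, SE, adjusted p = 0.117, limma). IL17RC had levels of 1.42, 1.32 and 1.43 with IFNT, against 1.18, 1.19 and 1.21 with PBS. Its change of 0.20 ± 0.05 (SE, adjusted p = 0.0835, limma) passed with an intensity trend and robust prior (adjusted p = 0.0264). Array row 2 held all BES IFNT samples and PBS sample 3, and row 1 the other two BES PBS samples. With row as a covariate the log2 change was 0.64 for IL12A, 0.88 for IL6, -0.36 for IL1A, -0.29 for IL1RN and 0.18 for IL17RC, and limma called 0 of the 12. The remaining members tested had log2 changes between -0.05 and 0.17. Of the signalling genes, limma called 0 of 7 JAK, STAT and inhibitor genes in BES, with 3 at an unadjusted p under 0.05, and 0 of 13 MyD88 and NF-kB genes, with 5 at an unadjusted p under 0.05.

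**Figure D3:**
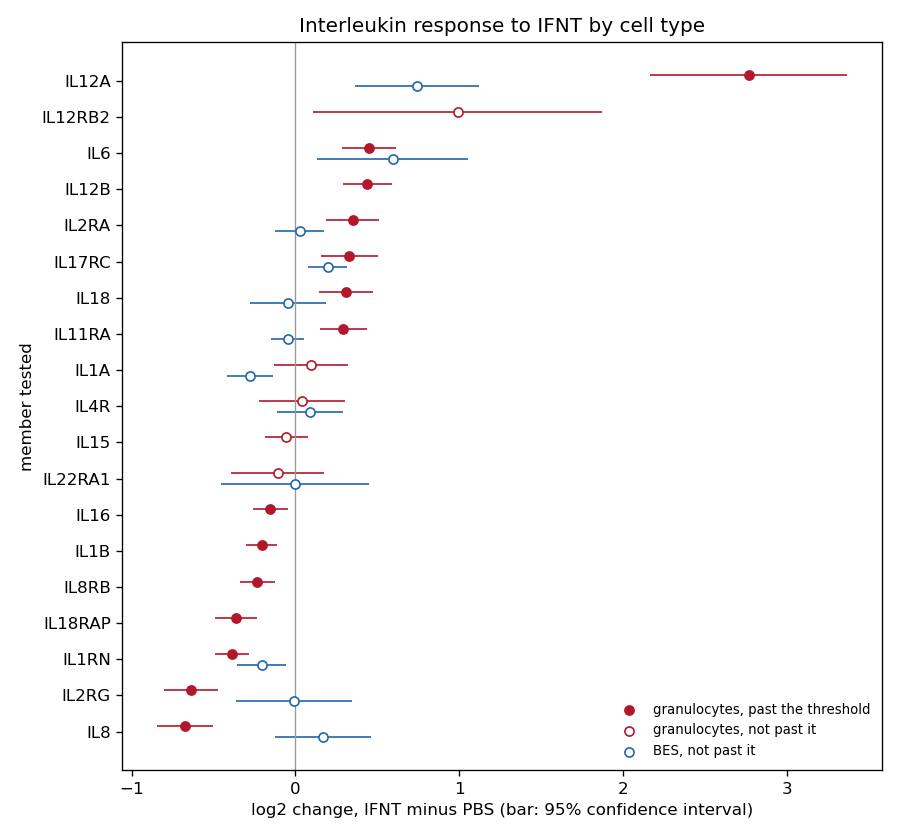
Log2 change, IFNT minus PBS (x axis), with its 95% confidence interval, for each member tested (rows) in granulocytes (red, upper, n = 4 each) and in BES (blue, lower, n = 3 each); filled points passed an adjusted p of 0.05. 14 of 19 points are filled in granulocytes and 0 of 12 in BES.

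The difference between the responses was tested in 1 fit of all 14 arrays. Of 19 members tested, 6 passed, against 26.5% of all 12046 probes tested (11.7% more positive and 14.8% more negative): IL12A, IL11RA and IL2RA had a more positive response in granulocytes, and IL8, IL18RAP and IL2RG a more negative one. The split was 2 more positive and 5 more negative under quantile normalization, and 4 and 3 under normexp correction. For IL8 the granulocyte change minus the BES change was -0.84 ± 0.15 on the log2 scale (SE, adjusted p = 0.0011, limma). Its BES levels were -1.58, -1.39 and -1.33 with IFNT, against -1.75, -1.35 and -1.71 with PBS. The BES groups overlapped, whereas all granulocyte IFNT samples were below all granulocyte PBS samples.

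IL12A had a fitted difference of 2.02 ± 0.37 (SE, adjusted p = 0.0015, limma), and 0.46 under normexp correction. Because granulocyte PBS samples were not well above background, the granulocyte change can be given only as at least 2.06-fold (1.05 on the log2 scale). The fitted change in BES was 1.67-fold (0.74 on the log2 scale, 95% confidence interval 0.36 to 1.12). The upper end of that interval lies above the granulocyte bound, so no least size can be given for the difference. IL2RG had a difference of -0.63 ± 0.16 (SE, adjusted p = 0.0135, limma). Its BES levels were -6.98, -7.02 and -7.48 with IFNT, against -7.22, -7.24 and -6.99 with PBS, near background, with 5 of 6 samples well above it. IL11RA had a difference of 0.34 ± 0.08 (SE, adjusted p = 0.0084, limma), with BES levels of 3.57, 3.51 and 3.56 with IFNT, against 3.57, 3.63 and 3.58 with PBS. Its BES levels hardly moved, and the call was lost under normexp correction (0.21, adjusted p = 0.0663).

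IL2RA had a difference of 0.32 ± 0.10 (SE, adjusted p = 0.0343, limma), with BES levels of -3.39, -3.32 and -3.25 with IFNT, against -3.40, -3.25 and -3.39 with PBS. The IL2RA call was lost under quantile normalization, without the filter on dim probes and in 7 of the 14 fits that left out a sample, where the adjusted p reached 0.0932. IL18RAP had a difference of -0.68 ± 0.16 (SE, adjusted p = 0.0073, limma). In BES it was well above background in 1 of 6 samples, at -7.62, -7.75 and -7.28 with IFNT, against -7.77, -8.11 and -7.72 with PBS, so the BES side of that difference was read at background. The differences of IL18 and IL1A did not pass (0.36 ± 0.13 and 0.37 ± 0.13, SE, adjusted p = 0.0562 and 0.0595, limma), nor did that of IL6 (-0.14 ± 0.20, SE, adjusted p = 0.672, limma).

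**Figure D4:**
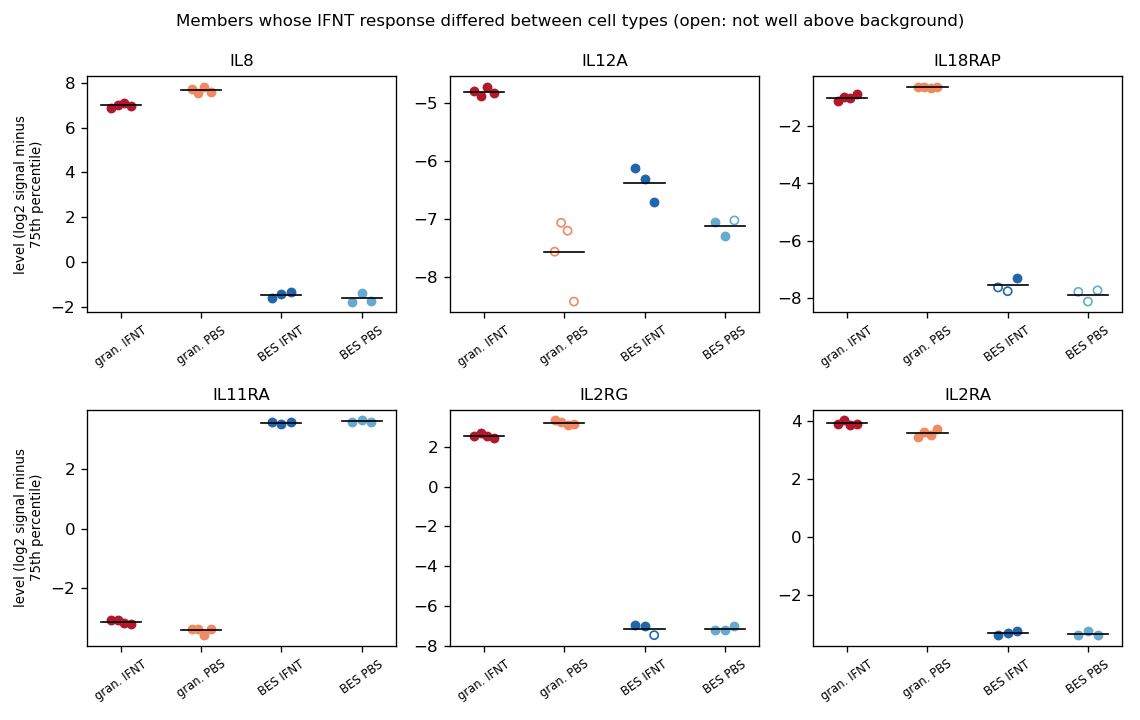
Log2 level (y axis, its own scale in each panel) in every sample of the 6 members whose response to IFNT differed between granulocytes and BES; groups run granulocytes IFNT, granulocytes PBS, BES IFNT and BES PBS, lines are group means and open circles are spots not well above background. IL8 and IL2RG are lower with IFNT in granulocytes, while their BES groups overlap.

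Without IFNT, 13 of the 27 interleukin genes were higher in granulocytes than in BES and 4 were lower. Under PBS 17 of 19 members tested differed, 13 higher and 4 lower in granulocytes, against 91.7% of all probes tested, 46.7% higher and 45% lower. IL12B, IL12RB2, IL15, IL16, IL18RAP, IL1B and IL8RB, 7 of the 13, passed the filter through granulocyte arrays alone, so they could only be found higher there. Of the 12 members that were also well above background on at least 3 BES arrays, 6 were higher and 4 lower. Cell type coincides with slide, and the 2 cannot be told apart here. The median log2 difference of all probes was 0.03, with -0.23 under quantile normalization and 0.50 under normexp correction. IL1B was not well above background in any BES sample, and its level in granulocytes with PBS was at least 19873-fold higher on the scale of the processed signal. The IL8RB probe was likewise at background in BES and at least 16415-fold higher in granulocytes with PBS. IL16 was at background in BES with PBS and at least 6841-fold higher in granulocytes with PBS. IL18RAP was at least 112-fold and IL12B at least 35.8-fold higher in granulocytes with PBS. These sizes hold for that scale: under normexp correction, which adds an offset of 50, the fitted log2 differences were 12.03 for IL1B, 11.96 for IL8RB, 10.40 for IL16, 4.66 for IL18RAP and 3.34 for IL12B, each smaller than its bound here. For IL12RB2, with 1 of 4 granulocyte PBS samples and no BES sample well above background, no fold is given.

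The members above background in both cell types gave direct differences. IL8 averaged 7.66 ± 0.13 in granulocytes with PBS and -1.60 ± 0.22 in BES with PBS (SD, n = 4 and 3), a log2 difference of 9.26 ± 0.10 (SE). IL1RN averaged 8.36 ± 0.05 in granulocytes with PBS and -0.77 ± 0.09 in BES with PBS (SD), a log2 difference of 9.13 ± 0.05 (SE). IL1A, IL2RG, IL2RA and IL4R were higher by 10.92, 10.36, 6.91 and 3.12 on the log2 scale in granulocytes, against 9.51, 8.33, 6.57 and 2.45 under normexp correction, and IL1A, IL2RG and IL4R were dim in BES. IL15 stood at 1.18 to 1.32 in granulocytes with PBS, against -6.00, -9.99 and -9.30 in BES with PBS, where only the first was well above background. Its fitted log2 difference is unstable, 8.90 to 10.89 when 1 sample was left out and 6.40 under normexp correction. Of the 4 members higher in BES, IL11RA differed most, averaging -3.41 ± 0.11 in granulocytes with PBS and 3.59 ± 0.03 in BES with PBS (SD), a log2 difference of -7.01 ± 0.06 (SE, adjusted p = 1.6e-17, limma) and of -6.38 under normexp correction. IL17RC (-1.97 ± 0.07), IL6 (-1.30 ± 0.14) and IL18 (-0.49 ± 0.09) were also lower in granulocytes (log2 difference ± SE). IL12A and IL22RA1 did not pass, with adjusted p of 0.126 and 0.658 in limma.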

How the data were processed

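RNA of 14 samples was read on 1-colour arrays. Per the labels and the submitters' processing notes, Agilent Feature Extraction 9.5 made the deposited scanner files, whose processed signal is an intensity already corrected for background by the authors' scanner software. The authors' value table holds log2 values, each array's log2 processed signal minus 1 constant, and served as an alternative. From the processed intensity, log2 values minus each array's 75th percentile were computed (Python 3.11.15, pandas 2.3.3), control spots and outlier-flagged spots left out; no interleukin spot was flagged as an outlier or saturated. limma 3.58.1 in R 4.3.3 fitted group means (lmFit, eBayes; two-sided; adjusted p under 0.05), after a test on simulated data. A probe needed to be well above background on 4 granulocyte or 3 BES arrays, or on either number for comparisons of both cell types. Where a group had no such array, a fold is a bound against the lowest signals well above background. The number of arrays limits the precision. Granulocytes and BES were fitted apart for IFNT responses.

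Values of every sample are given for the 12 members past the threshold in granulocytes with the largest absolute change, those past it in BES and the 6 with the smallest p in the difference; IL12RB2 and the BES values of IL6, IL1A, IL1RN and IL17RC were added after values were seen. The members and gene lists were chosen with earlier results of these data known. Replicate numbers gave no sign of pairing and were not used in the main fits. Deviations of same-numbered samples from their group means correlated at -0.06 to 0.13 in granulocytes and -0.00 to 0.06 in BES. Different-numbered granulocyte samples correlated at -0.30 to 0.22. So few samples cannot show whether those with the same number share an origin. Promoter and protein sequences were not used here, and 1 gene of the JAK and STAT list is not reported here and was left out of its counts.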

Additional observations from a re-analysis of the deposited data

Results flagged for a closer look

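The IFNT response of 6 members differed between granulocytes and BES in limma's test of the difference itself. The granulocyte response minus the BES response was -0.84 for IL8, 2.02 for IL12A, -0.68 for IL18RAP, 0.34 for IL11RA, -0.63 for IL2RG and 0.32 for IL2RA, on the log2 scale. For IL18RAP the BES side was not well above background in most samples, and for IL12A no granulocyte PBS sample was well above it. Under normexp correction the IL12A value was 0.46.

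In 1 of 38 groups of 4 granulocyte samples, a sample lay far from the rest of its group by Dixon's criterion, where chance gives about 1 in 20 groups. It was IL11RA in PBS sample 3, at a level of -3.57, against -3.38 to -3.35 in the other PBS samples.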

How the results depend on the processing

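Limits are the array rows, which coincide with IFNT in granulocytes, the slides, which coincide with cell type, and the few arrays a group. Dim probes, such as IL12A, IL12RB2, IL22RA1 and, in BES, IL1A, IL2RG and IL4R, lie near background. In granulocytes 10 to 15 members passed over 16 alternatives, 10 when all 14 arrays shared 1 fit, and 9 of the 14 called members passed in each; IL11RA, IL12B, IL1B, IL8RB and IL16 lost the call in at least 1, and none of the 14 changed sign. Leaving out 1 sample gave 13 to 15. With all arrays in 1 fit the adjusted p was 0.351 for IL12B, 0.105 for IL1B, 0.192 for IL8RB and 0.781 for IL16. In BES 0 members became 1 under quantile normalization, 2 with an intensity trend and robust prior and 0 to 1 when 1 sample was left out. Over all probes normexp correction called 295 higher and 326 lower in BES, against 259 and 155. Between responses 5 to 8 passed, and between cell types 17 to 25, with 25 where dim probes were kept. With the replicate number as a block, 14 members passed in granulocytes, 0 in BES and 7 in the difference, where IL2RG lost its call (adjusted p = 0.0519).

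The direction turned only for members that had not passed, and the cause was not tested. In granulocytes these were IL22RA1 under normexp correction (0.069) and IL4R without PBS sample 2 or 4, over a leave-one-out range of -0.029 to 0.16, with -0.0028 without PBS sample 4. In BES IL18 was 0.026 and IL22RA1 0.043 with array row as a covariate, where IL4R was -0.027. IL22RA1 was 0.00065 in the value table. IL2RG was 0.052 under quantile normalization and 0.0092 under normexp correction. Leaving out 1 BES sample gave -0.11 to 0.060 for IL18, -0.19 to 0.18 for IL22RA1, -0.011 to 0.074 for IL2RA and -0.10 to 0.15 for IL2RG. Between cell types IL12A was 0.93 under normexp correction and IL22RA1 -0.39 under quantile normalization. No member had a second probe, so the alternative with another probe of a gene was not run.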
